A study of Rattus norvegicus with 13 samples.

Results

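The genes described here encode ion pumps of brain membranes: Atp1b1, a subunit of the sodium pump, Atp2a2, the calcium pump of the endoplasmic reticulum, and Atp2b1, Atp2b2, Atp2b3 and Atp2b4, the calcium pumps of the plasma membrane. They were picked by gene symbol from a comparison of RNA between rats given an shRNA against Oprm1 and rats given a scrambled shRNA, and 6 of 6 listed symbols were found among 14855 genes. The choice was made with results of this same comparison known, so the fold changes below describe the genes and test nothing. Of the 6, 4 were lower and 2 were higher with the Oprm1 shRNA in the authors' deposited table, and 0 passed an adjusted p under 0.05, the threshold used throughout. Over all genes of that comparison 0.0202% passed it.

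The animals were adolescent male SAS Sprague-Dawley rats, and the tissue was the medial preoptic area (MPOA), a part of the hypothalamic region with roles in social and sexual behaviour. Both groups received an adeno-associated virus of serotype 5 carrying GFP on postnatal day 21, at 0.5 uL on each side, with a U6 promoter driving either the hairpin against Oprm1, the mu opioid receptor gene, or a scrambled hairpin. The labels give 7 scrambled and 6 Oprm1 shRNA samples and name 1 of the latter as an excluded outlier, so that 5 remain. They do not say that each sample is a separate rat, nor that the injected animals were checked for spread of the virus, and every cell type of the dissected tissue contributed RNA.

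No values of single samples were analysed here, so neither the level in each sample nor any overlap between the groups can be given, and the depth per sample is unknown. What the authors' deposited table holds for a gene is a log2 fold change (above 0 where RNA was higher with the Oprm1 shRNA), an average abundance in CPM, which is read counts scaled to library size, a likelihood ratio (LR) and its p-values. The error given here is a standard error (SE) implied by the LR, on the log2 scale, with an approximate 95% interval of the fold. CPM is not divided by transcript length, so abundances are not ranked between genes. The targeted gene, Oprm1, was at 7.32 CPM by the authors' deposited table, with a fold of 0.670 (interval 0.0715 to 6.27), which checks the group labels in neither direction.

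The sodium pump, or Na,K-ATPase, spends ATP to carry sodium out of the cell and potassium in, and in neurons it restores the gradients that each action potential runs down. Its alpha subunit does the transport, and its beta subunit is a glycoprotein that brings the alpha subunit to the surface. Calcium that enters during activity is expelled across the plasma membrane by the pumps of the Atp2b family (PMCA), which calmodulin activates, and is stored in the endoplasmic reticulum by the Atp2a family (SERCA). Atp2b2 and Atp2b3 are known mainly from excitable tissue such as brain, while Atp2b1, Atp2b4, Atp2a2 and Atp1b1 are also found in many other cells. In whole tissue, fewer cells of a type and less RNA per cell cannot be told apart, and the name neuronal pumps rests on what is known of the genes, not on these data.

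RefSeq promoter windows, from 250 bases before to 50 bases after a gene's listed start, were at hand for 4 of the 6 genes, on the rat build GRCr8. A pair of PMCA genes is shown whose windows are unlike in composition. It was picked with their fold changes, given further on, already known. Setting composition beside fold change therefore tests nothing. Capitals mark GC boxes, the letters GGGCGG on either strand. The Atp2b1 window is chr7:35622211-35622510 on the plus strand, and the Atp2b4 window is chr13:47758827-47759126 on the minus strand, each printed 5′ to 3′.
Atp2b1: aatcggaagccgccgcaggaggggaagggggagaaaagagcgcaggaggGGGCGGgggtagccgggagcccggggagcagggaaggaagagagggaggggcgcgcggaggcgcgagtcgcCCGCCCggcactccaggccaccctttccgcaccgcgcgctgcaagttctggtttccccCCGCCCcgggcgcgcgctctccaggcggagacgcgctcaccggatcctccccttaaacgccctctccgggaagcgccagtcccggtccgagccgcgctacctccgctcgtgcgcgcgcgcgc
Atp2b4: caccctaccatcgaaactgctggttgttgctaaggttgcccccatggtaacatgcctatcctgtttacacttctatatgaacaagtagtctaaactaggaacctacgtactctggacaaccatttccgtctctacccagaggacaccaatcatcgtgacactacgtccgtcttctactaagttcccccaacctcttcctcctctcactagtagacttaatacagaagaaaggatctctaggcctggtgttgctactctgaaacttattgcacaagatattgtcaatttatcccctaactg
The Atp2b1 window is 74.3% G and C, with 42 CpG dinucleotides and 3 GC boxes. The window of Atp2b4 is 44.7% G and C, with 6 CpG and 0 GC boxes. Those of Atp2a2 (79.0% G and C) and Atp2b2 (72.3%) hold 3 GC boxes each, and 33.1% of 33469 rat promoter windows of the same length hold at least 1. The letters TGACGTCA, the palindromic cyclic AMP response element, were in 0 of the 4 windows and in 1.83% of all windows. No value of this study measures promoter use, and the start RefSeq lists may not be the one used in the MPOA.

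Atp1b1 (ENSRNOG00000002934), the beta 1 subunit of the sodium pump, was the member with the narrowest interval. At 1750 CPM its log2 fold change by the authors' deposited table was 0.15 (implied SE 0.0561), which is a fold of 1.11 (interval 1.03 to 1.20). The unadjusted p there was 0.00695 and the adjusted p 0.9997. It was the 1 member of 6 with an unadjusted p under 0.05 in the authors' deposited edgeR comparison, where 4.39% of all genes had one. To join the genes past the adjusted threshold at its own SE, Atp1b1 would have needed a fold beyond 1.18.

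The small error of Atp1b1 goes with its abundance. Between 1218 and 2435 CPM lie 45 genes, whose median implied SE of 0.0561 is the value of Atp1b1 itself, and 16 of them, or 35.6%, had an unadjusted p under 0.05 in the authors' deposited table. In the band of equal width below, the median SE was 0.102 and 4 of 127 genes had such a p. Above 2435 CPM the median SE was 0.129, for 15 genes of which 0 had one. In an alternative added once the data had been seen, in which its SE is raised to 0.102, Atp1b1 had an unadjusted p of 0.136 by the same LR calculation. It was 0.358 with the SE raised to 0.165, the median between 256 and 1024 CPM. A raised SE can only make the p larger, so these values show its dependence on the SE and test nothing.

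**Figure D1:**
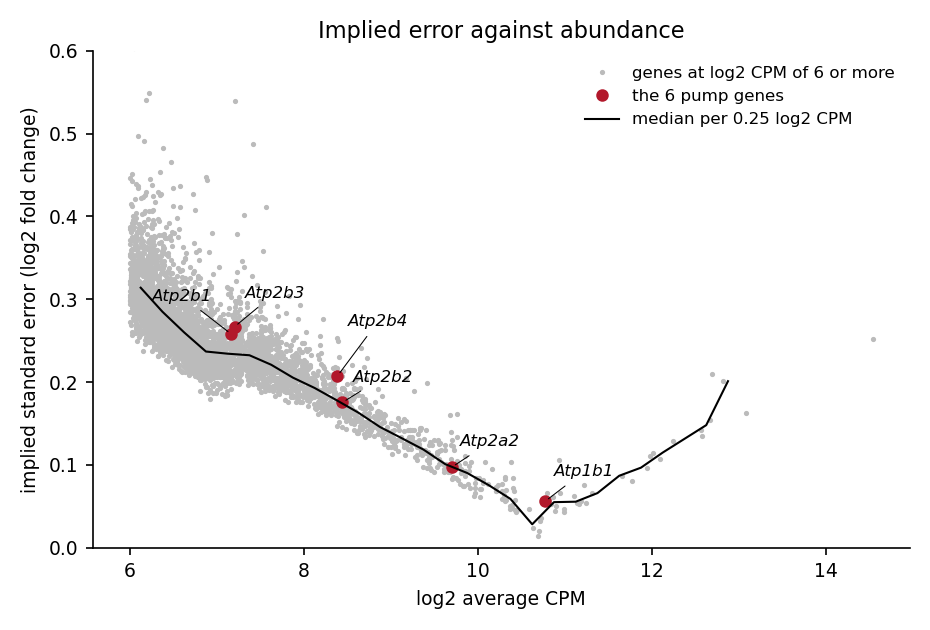
Implied SE of the log2 fold change (vertical axis) against log2 average CPM (horizontal axis), 1 grey point per gene at log2 CPM of 6 or more, with the running median as a line. Atp1b1 sits near the low point of the curve, at an SE of 0.0561, and the other pump genes sit along its falling arm. A count of 29 genes with an SE above the axis are not drawn.

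The other beta subunits of the sodium pump did not share one direction. Atp1b2, a beta subunit of glia and neurons, was at 739 CPM by the authors' deposited table, and its fold was 0.923 (0.791 to 1.08). Atp1b3, a widely expressed beta subunit, had a fold of 1.16 (0.858 to 1.56) at 152 CPM there. Both intervals hold 1. Both also overlap that of Atp1b1, but such overlap is no test of a difference between genes, and none was run. Of the 3 beta subunit genes measured, Atp1b1 among them, 2 were higher and 1 lower, and 0 passed. Atp1b4 has no row in the table used here.

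Atp2a2 (ENSRNOG00000001285) encodes SERCA2, the pump that refills the endoplasmic reticulum with calcium. At 833 CPM its log2 fold change by the authors' deposited table was −0.09 (implied SE 0.0974). This is a fold of 0.939 (interval 0.823 to 1.07), with an unadjusted p of 0.351. At this SE a fold beyond 1.14 would have had an unadjusted p under 0.05, and one beyond 1.34 would have passed the adjusted threshold.

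The relatives of Atp2a2 in internal membranes were mostly too scarce to say more. Atp2c1, a calcium and manganese pump of the Golgi, was at 127 CPM by the authors' deposited table and had a fold of 0.914 (0.657 to 1.27). Atp2a3, the SERCA3 gene, was at 3.74 CPM with a fitted log2 value of 0.46 (SE 2.15), and Atp2c2 was at 1.34 CPM with −3.25 (SE 3.04), both by the authors' deposited table. For both the fitted value is no bound. It may depend on the prior count of the authors' fit, which was not examined. Besides Atp2a2, 9 SERCA and SPCA pumps and SERCA regulators were listed and 4 were measured. Of these 3 were lower and 1 higher, at a median SE of 2.59, and 0 passed.

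Atp2b1, Atp2b3 and Atp2b4 had nearly the same fold change. Atp2b1 (ENSRNOG00000004026), the PMCA1 gene expressed in most cells, was at 144 CPM. Its log2 fold change by the authors' deposited table was −0.24 (SE 0.258), or a fold of 0.849 (interval 0.598 to 1.21). For Atp2b3 (ENSRNOG00000061304), the PMCA3 gene of the brain, at 147 CPM, the authors' deposited table gave −0.25 (SE 0.267), or a fold of 0.844 (0.587 to 1.21). Atp2b4 (ENSRNOG00000003031), the PMCA4 gene, was at 335 CPM, and its value by the authors' deposited table was −0.23 (SE 0.207), or a fold of 0.855 (0.645 to 1.13). Each of the 3 values is about the size of its own SE, and each interval holds a fold of 1.

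Atp2b2 (ENSRNOG00000030269) stood apart from these in sign. It encodes PMCA2, a fast pump of Purkinje cells and hair cells, and at 348 CPM its log2 fold change by the authors' deposited table was 0.03 (SE 0.175), or a fold of 1.02 (interval 0.803 to 1.29). All 3 of the lower values lie inside this interval, so the PMCA genes are not separated from each other by these errors. The unadjusted p-values ran from 0.275 for Atp2b4 to 0.874 for Atp2b2 in the authors' deposited edgeR comparison. At its own SE each gene would have needed a larger change to be called than any of the 4 showed, from a fold beyond 1.70 for Atp2b2 to one beyond 2.24 for Atp2b3.

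Neuroplastin and basigin, encoded by Nptn and Bsg, are membrane proteins that PMCA pumps need as obligatory partners. By the authors' deposited table Bsg, at 430 CPM, had a fold of 1.28 (1.03 to 1.59), with an unadjusted p of 0.0241 and an adjusted p of 0.9997. Nptn had a fold of 1.12 (0.924 to 1.35) at 434 CPM there. Both partners had values above 1, beside 3 of 4 pumps below it, and 0 of these 6 genes passed.

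**Figure D2:**
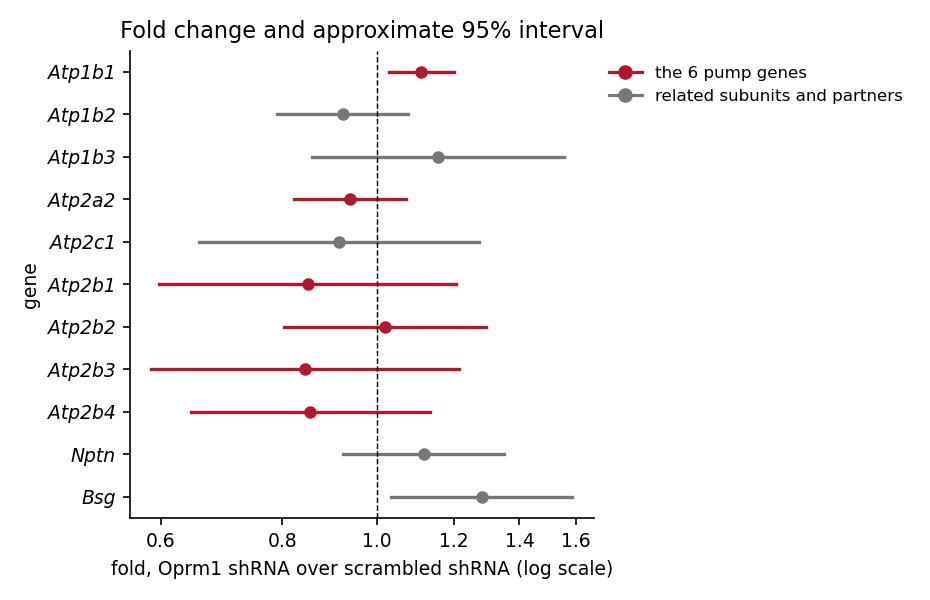
Fold of Oprm1 shRNA over scrambled shRNA (horizontal axis, log scale) for the 6 pump genes in red and related subunits and partners in grey, with approximate 95% intervals from the authors' LR as bars. The intervals of Atp1b1 (1.03 to 1.20) and Bsg lie above 1, while the intervals of Atp2a2 and the 4 Atp2b genes all hold 1.

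As a group the 6 genes had, by the authors' deposited table, a median log2 fold change of −0.16, from −0.25 for Atp2b3 to 0.15 for Atp1b1. The median of all 14855 genes was −0.02, with 51.6% lower, and that of the 3631 genes with a log2 CPM of at least 6, the range that holds all 6, was −0.01, with 52.1% lower. A mean weighted by precision was 0.054, above 0, with 62.5% of the weight on Atp1b1, whose SE is the smallest. The direction of the group therefore depends on how its genes are averaged, and the weighted mean rests largely on the SE of Atp1b1. That SE lies near the low point of the curve of implied error against abundance. A weighted mean with it raised was not computed.

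The rest of the pathway gave no call either. Of 76 listed genes of sodium and calcium transport and other P-type ATPases that are not among the 6, 62 were measured, 36 lower and 26 higher, and 0 passed the adjusted threshold in the authors' deposited table. Their median log2 fold change was −0.10. At an unadjusted p under 0.05 there were 2, namely Bsg and Slc8a1. Sodium-calcium exchangers of the plasma membrane expel calcium in trade for sodium and so depend on the sodium pump. The list, which also holds exchangers of internal membranes, was lower in 6 of 9 genes (median log2 value −0.31) and higher in 3. Its median SE of 0.491 was larger than the size of that median. Slc8a1, the exchanger NCX1, was at 47.1 CPM by the authors' deposited table and had a fold of 0.589 (0.356 to 0.976), with an unadjusted p of 0.0399 and an adjusted p of 0.9997. Slc24a3, a potassium-dependent exchanger, had 0.603 (0.309 to 1.17) there.

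FXYD proteins, small regulators of the sodium pump, had 2 of 4 measured genes lower, with Fxyd1 at a log2 value of 0.59 (SE 0.990) and Fxyd6 at −0.09 (SE 0.152) in the authors' deposited table. For calcium release and store-operated entry, 7 of 11 genes were lower (median −0.15), and Orai2, a store-operated channel, had −0.32 (SE 0.352) and the ryanodine receptor gene Ryr1 −1.07 (SE 1.33) in the authors' deposited table. Among mitochondrial uniporter genes 5 of 6 were lower with a median of −0.11, with Micu2, a gatekeeper of the channel, at 0.25 (SE 0.298) and the pore gene Mcu at −0.68 (SE 1.13) in the authors' deposited table. These genes ran from 2.54 to 101 CPM, and their median SE of 0.799 was larger than the size of any of their values. Over all genes 51.6% were lower. Calmodulin and calcium buffer genes had 3 of 6 lower, with the calretinin gene Calb2 at −0.25 (SE 0.282) and Calm3 at 0.11 (SE 0.121) in the authors' deposited table. Other P-type ATPases, many of which carry lipids, copper or polyamines, had 9 of 18 lower with a median of 0.02. The 2 with the smallest p were the flippase gene Atp8a2, at −1.01 (SE 0.787), and Atp9b, at 0.37 (SE 0.318), in the authors' deposited table. In each of these 5 lists 0 genes passed, and 0 had an unadjusted p under 0.05.

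Markers of 5 cell classes were found in the table. All 12 pan-neuronal markers were measured, from 29.7 to 1756 CPM, with 7 lower (median log2 value −0.07), and the 2 with the smallest p pointed opposite ways, Map2 at −0.15 and Elavl3 at 0.76 in the authors' deposited table. Of 10 astrocyte markers 7 were lower (median −0.10), from Slc1a2, a glutamate transporter, at −1.47 (SE 0.666) to Sox9 at 1.79 (SE 1.15). Sox9 was at 9.77 CPM, and the filament gene Gfap had 0.37 (SE 0.199), all in the authors' deposited table. Of 9 oligodendrocyte markers 7 were lower (median −0.02), and Mag and Mobp had −0.08 and 0.09 in the authors' deposited table. Microglial markers had 5 of 9 lower with C1qa at 0.31 (SE 0.363) and C1qc at −0.35 (SE 0.627) in the authors' deposited table. Vessel markers had 4 of 8 lower with Rgs5 at 1.17 (SE 0.905) and Slco1a4 at −0.41 (SE 0.507) there. In these lists 0 genes passed the threshold in the authors' deposited edgeR comparison, and 3, namely Map2, Elavl3 and Slc1a2, had an unadjusted p under 0.05. The part of cell makeup in the values of the pump genes was not tested.

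**Figure D3:**
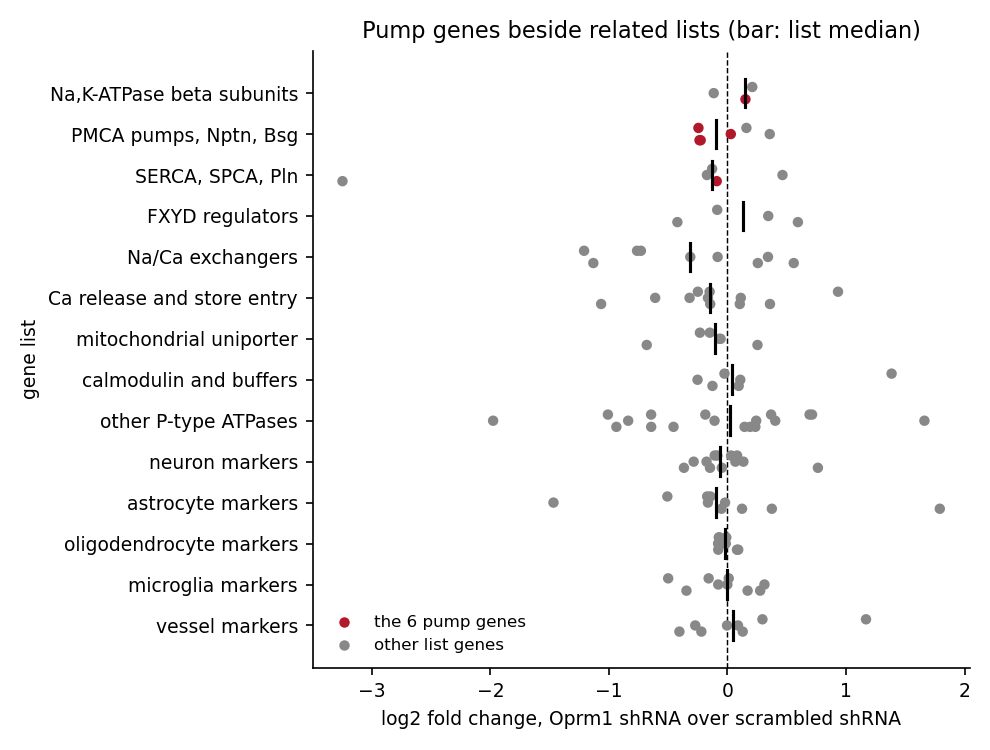
Log2 fold change of every measured gene in 14 lists (horizontal axis), 1 point per gene and 1 row per list, with the 6 pump genes in red and a black bar at each list's median. The red points lie between −0.25 and 0.15, and the list medians between −0.31 for the sodium-calcium exchangers and 0.15 for the beta subunits of the sodium pump.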

How the data were processed

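RNA sequencing of the MPOA was summarised by the authors in one table for Oprm1 shRNA against scrambled shRNA. Per the submitters' processing notes, the tools were STAR 2.5.3a, RSEM and edgeR 3.28.0, with bcl2fastq 2.20 and the rat build Rnor_6.0. The sources used here do not give the annotation release, count filter, covariates or strand setting. Per the file headers, the deposited columns are a log2 fold change, a log2 average CPM, the LR (a score with no upper limit) and an unadjusted and an adjusted p-value. Each deposited p-value was checked to be the upper tail of a chi-square with 1 degree of freedom beyond the LR. The adjustment by the authors covered 14859 tests, and 14855 genes were used.

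The implied SE is the absolute log2 fold change over the square root of the LR, which treats the LR as a squared normal value, an approximation. The planned count test gave way to the deposited values, since no counts were at hand. The p-values rest on the authors' LR, and the SE it implies varied with abundance. Without values per sample, it could not be checked how far that error reflects each gene's own spread between samples. Any such spread may be technical. RSEM divides reads among similar paralogs by an estimate. The fold needed for a call is the one at which 1 further gene would join the 3 that passed.

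The members and the 14 gene lists were chosen with earlier results of these data known. Named are all members, measured sodium pump beta subunits, PMCA partners, SERCA and SPCA pumps, the 2 genes of smallest p in each other list, and Oprm1. No genes of like pattern are named, since that needs values per sample. Some genes that the rule or the lists would name are not reported here. Sox9 was added after its value was seen. Gene positions on the authors' build are not printed. Python 3.11.15, numpy 2.4.6, pandas 2.3.3, scipy 1.17.1 and matplotlib 3.10.9 were used.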

Additional observations from a re-analysis of the deposited data

How the results depend on the processing

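The count of 3 genes past the threshold over the whole table was 4 at an adjusted p under 0.1, 2 under 0.01 and 652 where an unadjusted p under 0.05 sufficed. It was 3 with the adjustment redone over the table or over genes with a log2 CPM of at least 0. A count of 1 was left with the SE of genes between log2 CPM 10 and 12 raised to the median of 8 to 10, and 1 with that between 1218 and 2435 CPM raised to the median of 609 to 1218 CPM, the latter chosen once the data had been seen. Raising an SE can only keep or lower such a count. Of the 6 pump genes 0 passed in each of these settings, except 1, Atp1b1, at an unadjusted p under 0.05. Their median log2 fold change of −0.16 was 0.054 as a precision-weighted mean, and from −0.23 to −0.09 with 1 gene left out. The signs of the 6 were the same after subtracting the median of all genes or of abundant genes, which shifts every value by 0.02 or less. Of the other pathway genes 36 of 62 (58.1%) were lower, and 21 of 38 (55.3%) with a log2 CPM of at least 4. Fewer genes enter the latter, and its share is nearer to the 51.6% of all genes. No paired analysis was possible because the table used holds no values per sample, and for the same reason no sample could be left out in turn. Abundance limits the reading: for Atp2b1, at 144 CPM, a change under 1.42-fold would not reach an unadjusted p of 0.05 at its SE.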

Other observations

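The curve of implied error against abundance has a sharp low point, near which the pump gene Atp1b1 lies. Between 1448 and 1722 CPM, 4 of 6 genes had an unadjusted p under 0.05 by the authors' deposited table, at a median implied SE of 0.0284, and between 1722 and 2048 CPM, which holds Atp1b1, 7 of 12 did, with a median SE of 0.0551. From 1024 to 1218 CPM it was 0 of 13 genes, and above 2435 CPM 0 of 15. The cause of the low point was not tested.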
